A study of Mus musculus with 12 samples.

Results

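The 10 genes described here build and trim the thin filament of striated muscle, the actin cable on which myosin pulls. They are the striated actins Acta1 and Actc1, the tropomyosins Tpm1, Tpm2 and Tpm3, the leiomodins Lmod2 and Lmod3, the muscle cofilin Cfl2 and the assembly factors Nrap and Smyd1. Members were found by the gene symbol to which the RefSeq accession of each array probe maps, which gave 14 probes out of 41174, with 2 probes each for Tpm1, Tpm2, Tpm3 and Smyd1. A probe entered the tests where 1 or more groups had it well above background on each of their 3 arrays. This held for 9 of the 10 genes, among 12300 genes tested, and Lmod2 did not pass.

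The cells were C3H/10T1/2, a mouse embryonic fibroblast line, as stable lines with the hairpin shSix4, which targets the homeobox factor Six4, or with the control hairpin shLuc. Both lines received a retrovirus with Flag-MyoD-myc (pBABE-MyoD), a tagged form of MyoD, which starts the skeletal muscle programme in fibroblasts, or the empty pBABE vector, and after 24 h spent 24 h in medium with 2% horse serum. The 4 groups, each of 3 arrays, were thus shSix4 with MyoD, shLuc with MyoD, shSix4 with empty vector and shLuc with empty vector. All groups share the hairpin and retroviral vectors and the serum change, so none is untreated. Nothing states that the 3 arrays of a group came from separate cultures or whether a line was 1 clone. The p-values therefore reflect the spread of these samples alone, and that spread may be technical. The number of arrays limits the precision.

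Actin monomers polymerise into the filament, and tropomyosin lies along it and, with troponin, sets when myosin may bind. Leiomodins help to start actin filaments and oppose the capping of their pointed ends, cofilin severs and disassembles actin, and Nrap and Smyd1 act while myofibrils are being assembled. Acta1 is the main actin of adult skeletal muscle, and Actc1, the cardiac actin, is also made in developing skeletal muscle. In fibroblasts other actins and other forms of tropomyosin make up the cytoskeleton.

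The 250 bases upstream of the RefSeq start (GRCm38.p6) are shown for the members whose brightest probe passed the test with MyoD in at least 1 line, with or without the slide of each array as a block in the fit, and that the RefSeq promoter table holds, because these are the stretches next to which the transcripts begin. Capitals mark matches to the E-box CANNTG, the motif class that MyoD binds, to TATAAA, and to the CArG box, the motif of serum response factor. All windows lie on the minus strand, Acta1 at chr8:123894776-123895025, Actc1 at chr2:114052876-114053125, Tpm2 at chr4:43523555-43523804, Cfl2 at chr12:54862878-54863127 and Nrap at chr19:56390039-56390288.
Acta1: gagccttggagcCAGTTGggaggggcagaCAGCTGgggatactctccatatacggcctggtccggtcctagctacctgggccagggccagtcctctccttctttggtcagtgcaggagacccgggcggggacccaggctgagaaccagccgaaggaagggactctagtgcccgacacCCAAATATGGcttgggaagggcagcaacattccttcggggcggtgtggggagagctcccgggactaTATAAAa
Actc1: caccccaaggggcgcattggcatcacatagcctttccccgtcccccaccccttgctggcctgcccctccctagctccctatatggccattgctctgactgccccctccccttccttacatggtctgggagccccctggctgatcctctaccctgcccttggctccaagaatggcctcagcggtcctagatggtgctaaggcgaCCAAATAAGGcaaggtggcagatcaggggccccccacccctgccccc
Tpm2: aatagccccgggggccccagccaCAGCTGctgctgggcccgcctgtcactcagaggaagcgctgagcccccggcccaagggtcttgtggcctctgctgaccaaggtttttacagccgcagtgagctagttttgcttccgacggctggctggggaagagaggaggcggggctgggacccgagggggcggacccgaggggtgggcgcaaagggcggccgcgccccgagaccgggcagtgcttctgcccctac
Cfl2: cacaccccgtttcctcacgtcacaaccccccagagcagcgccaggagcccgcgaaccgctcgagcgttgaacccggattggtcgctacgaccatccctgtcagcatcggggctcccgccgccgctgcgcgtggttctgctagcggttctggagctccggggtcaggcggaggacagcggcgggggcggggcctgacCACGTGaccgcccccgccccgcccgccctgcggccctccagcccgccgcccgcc
Nrap: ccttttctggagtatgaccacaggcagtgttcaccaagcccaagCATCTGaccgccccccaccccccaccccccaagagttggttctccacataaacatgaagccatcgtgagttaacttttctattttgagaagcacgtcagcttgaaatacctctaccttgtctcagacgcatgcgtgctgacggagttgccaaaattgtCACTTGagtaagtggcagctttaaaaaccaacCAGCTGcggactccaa

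The actin windows were set apart from the others by the CArG box. Acta1 held one at 73 to 64 bases upstream of the start and Actc1 one at 47 to 38 bases, and these were 2 of the 10 windows available for 9 member genes (Tpm3 has 2, Lmod3 none). Over all 32851 windows of the table a CArG box was present in 1.47%. An E-box was present in 8 of the 10 member windows, against 66.2% of all windows, so its presence is common. Nrap had 3 E-boxes, the nearest at 16 to 11 bases upstream, and Actc1 and Smyd1 had none. TATAAA was found in Acta1 and Smyd1 (12.4% of all windows). The core of the MEF3 motif, TCAGGTT, which Six4 and its relatives bind, and the MEF2 box were in 0 of the 10 windows, and 3.49% and 2.92% of all windows held them. Both strands were searched, and no matches overlapped each other. A match is a description of the letters only, and no binding was measured.

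Signal is given below as a level, which is log2 of the processed signal minus the 75th percentile of its own array, so that 0 is that percentile and 1 unit is a 2-fold step. Levels of different probes are not comparable with each other. Each array had 22318 to 27448 probes well above background and no saturated spot, and arrays of a group correlated at r = 0.955 to 0.993 across 12144 genes. Arrays of the 4 groups with the same replicate number share a slide, so each group is spread over slides 1, 2 and 3. Slide 1 was scanned on an earlier day than slides 2 and 3, and arrays of the same slide deviated together. The fit with slide as a block is therefore given wherever it changes the call of a member or a count of calls. Fibroblast markers were above background in every group (11 or 12 of 12 on each array), whereas of 12 skeletal muscle markers all were above background on the MyoD arrays and 3 to 6 on the empty-vector arrays. Leukocyte and endothelial markers were mostly at background (1 to 4 of 8 on an array). The targeted gene, Six4, read -3.03, -2.93 and -1.54 in shSix4 with MyoD, against -1.45, -1.69 and -0.85 in shLuc with MyoD (log2 difference -1.17 ± 0.49 SE, limma adjusted p = 0.558, and 0.0424 with the slide block). With empty vector it read -4.10, -3.00 and -2.82 in shSix4 cells and -2.62, -2.90 and -1.64 in shLuc cells (adjusted p 0.999 for that pair). Myod1 with the MyoD virus read -2.17, -0.86 and -0.23 in shSix4 cells, against 0.071, -0.23 and 1.23 in shLuc cells (adjusted p = 0.837). With empty vector it read -4.37 and -2.01 in shSix4 cells and -4.77 and -2.57 in shLuc cells on slides 1 and 2. Slide 3 gave no value there. In shSix4 cells the 2 vectors thus overlapped. The part of the Myod1 level in the differences between the lines was not tested.

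**Figure D1:**
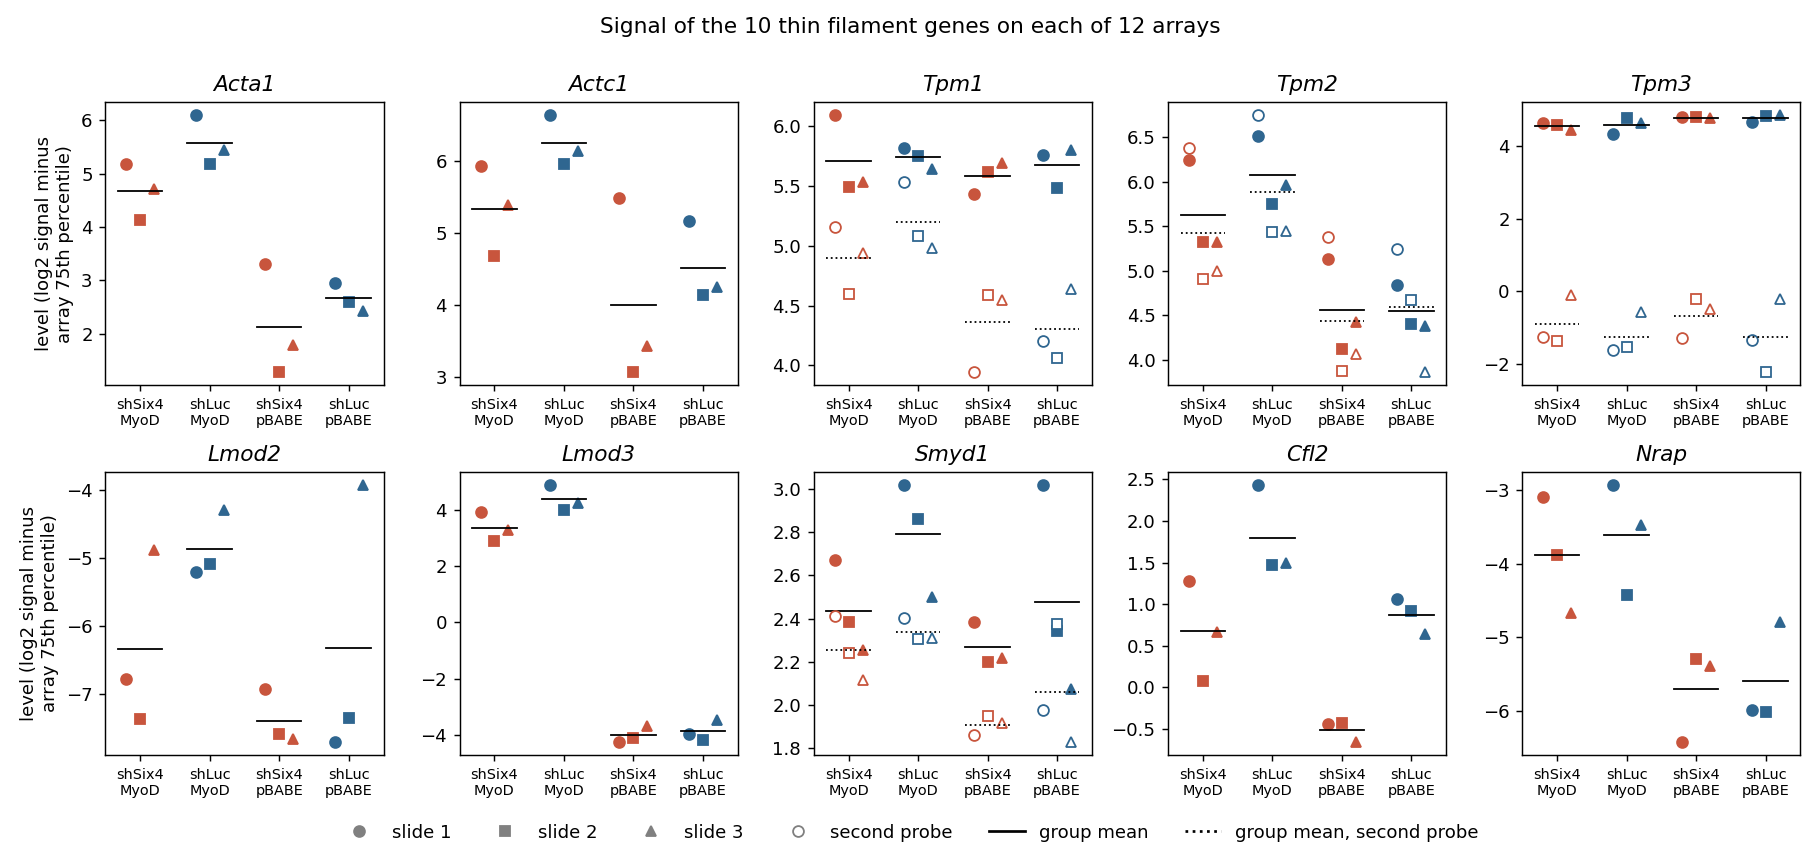
Level of each of the 10 genes on the 12 arrays, by group (red shSix4, blue shLuc), with a marker per slide and a bar at the group mean. Open markers and dotted bars are second probes, and each panel has its own scale. Lmod3 separates all 6 MyoD arrays from all 6 empty-vector arrays by over 6 log2 units, while Tpm1, Tpm3 and Smyd1 stay within about 1 unit or less in their brighter probe.

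MyoD raised part of the thin filament set in both lines. In shSix4 cells 2 of the 9 tested members rose, Lmod3 and Acta1, and 0 fell, where 2.79% of all genes tested rose and 0.106% fell (limma, Benjamini-Hochberg adjusted p under 0.05). In shLuc cells 4 rose, namely Lmod3, Acta1, Tpm2 and Nrap, and 0 fell, where 4.72% of all genes rose and 1.56% fell. Nrap entered the test through the MyoD groups alone, and its call was lost without the filter on dim probes (adjusted p = 0.0802). With the slide block Actc1, Tpm2 and Cfl2 were added in shSix4 cells, which made 5 (5.7% of all genes), and Actc1 and Cfl2 in shLuc cells, which made 6 (9.89% of all genes). The median change of the 9 was 1.18 in shSix4 cells and 1.54 in shLuc cells on the log2 scale, and that of all 12300 genes was -0.058 and -0.14, the shifts against which these changes stand.

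The different counts do not show a difference between the lines. The test of that difference called 0 of 12300 genes (0%) in limma, with or without the slide block. An unadjusted p under 0.05 was found without the block in 249 genes (2.02%), 0 of them members, and with it in 6.24% of all genes, 2 members among them (Lmod3 and Tpm2). The summed level of 12 skeletal muscle markers was 7.18 to 7.91 in shSix4 cells with MyoD, against -0.34 to 0.83 with empty vector, and 8.72 to 9.16 in shLuc cells with MyoD, against -0.50 to -0.23 with empty vector. All 12 of these markers passed the test in each line. Myog, Ckm, Myh3, Myh8, Myl1, Chrna1, Des, Ttn and Unc45b among them entered it through the MyoD groups alone. Their tests thus set signal against readings mostly at background. In bulk RNA a smaller share of cells with a transcript and less of it per cell cannot be told apart.

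**Figure D2:**
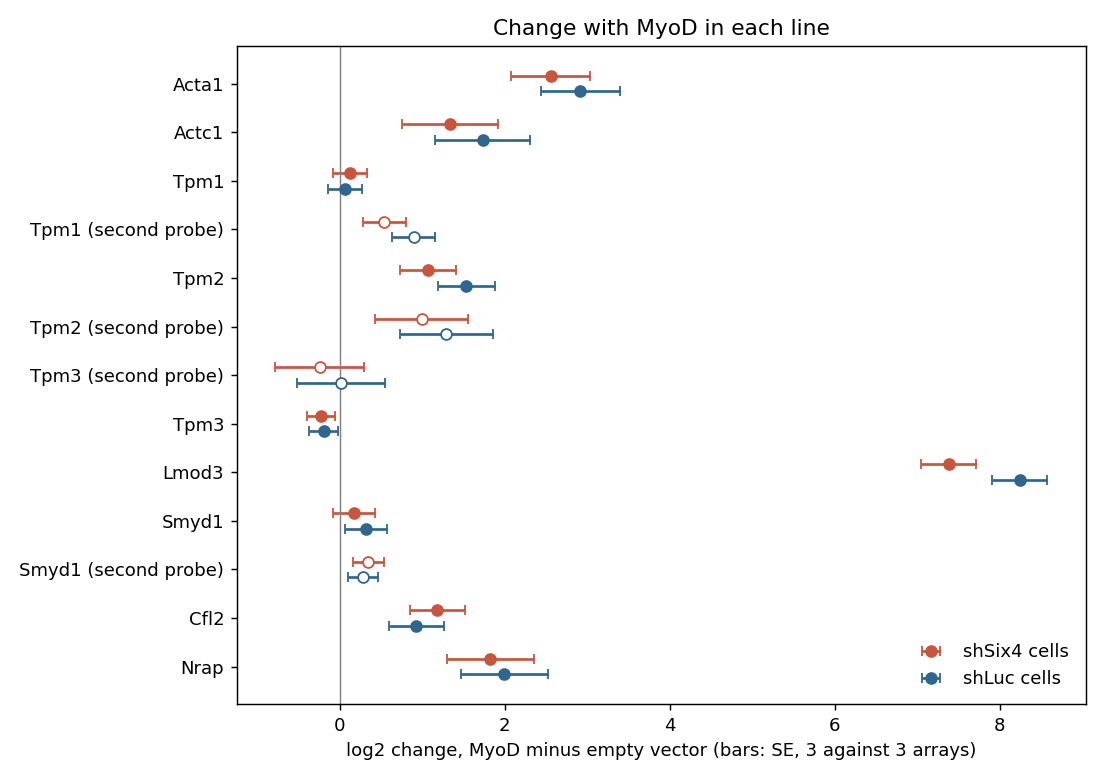
Log2 change with MyoD against empty vector for each tested probe in shSix4 (red) and shLuc (blue) cells, with limma standard errors from 3 against 3 arrays. Lmod3 lies at 7.38 and 8.24, Acta1 and Nrap between 1.82 and 2.91, and both Tpm3 probes and the brighter Tpm1 probe near 0.

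The leiomodin Lmod3 had by far the widest range of the set, 9.14 log2 units over the 12 arrays. It read 3.92, 2.87 and 3.29 in shSix4 cells with MyoD, against -4.25, -4.12 and -3.69 in shSix4 cells with empty vector. In shLuc cells it read 4.88, 3.99 and 4.24 with MyoD, against -3.96, -4.19 and -3.46 with empty vector. Every MyoD array was far above every empty-vector array, and in all 4 groups the probe stood well above background on all 3 arrays. The change was 7.38 ± 0.33 in shSix4 cells (167-fold, adjusted p = 2.18e-07) and 8.24 ± 0.33 in shLuc cells (303-fold, adjusted p = 6.65e-08; errors of changes are limma SE). Both calls held under all 24 alternatives in which Lmod3 was measured, although normexp background correction, which lifts dim values, gave 5.84 and 6.05. The gene whose level ran most nearly parallel to it over the 12 arrays was Chrna1, a subunit of the muscle acetylcholine receptor (Pearson r = 0.998). Chrna1 was well above background on 0 of 3 empty-vector arrays in shSix4 cells and 1 of 3 in shLuc cells. This correlation thus rests partly on readings at background.

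Its relative Lmod2, known best from heart, stayed near the background. It read -6.77, -7.36 and -4.88 in shSix4 with MyoD, -5.21, -5.09 and -4.29 in shLuc with MyoD, -6.92, -7.58 and -7.66 in shSix4 with empty vector and -7.70, -7.35 and -3.92 in shLuc with empty vector. It stood well above background on 1, 2, 0 and 1 of 3 arrays of these groups, so no group measured it throughout. Tested without the filter, its change with MyoD was 1.05 ± 0.91 in shSix4 cells (adjusted p = 0.853) and 1.46 ± 0.91 in shLuc cells (adjusted p = 0.564). The highest empty-vector array, slide 3 of shLuc, overlapped the MyoD arrays.

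Acta1, the skeletal actin, rose in both lines. It read 5.19, 4.12 and 4.72 in shSix4 cells with MyoD, against 3.30, 1.27 and 1.78 with empty vector. In shLuc cells the levels were 6.10, 5.18 and 5.45 with MyoD, against 2.96, 2.60 and 2.43 with empty vector. The groups did not overlap in either line, and within the empty-vector shSix4 arrays slide 1 stood well above the other slides. The increase was 2.56 ± 0.48 in shSix4 cells (5.89-fold, adjusted p = 0.0112) and 2.91 ± 0.48 in shLuc cells (7.53-fold, adjusted p = 0.00295). In shLuc cells the call held under all 24 alternatives in which Acta1 was measured. In shSix4 cells it was lost with normexp correction (adjusted p = 0.142) and without replicate 3 of the empty-vector group (0.0576), replicate 1 of the MyoD group (0.0543) or replicate 3 of the MyoD group (0.0519), while the change stayed between 2.14 and 3.15.

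Actc1, the cardiac actin, ran closely with Acta1 over the arrays (r = 0.937, 12 arrays). It read 5.93, 4.68 and 5.39 in shSix4 cells with MyoD, against 5.49, 3.06 and 3.42 with empty vector, and here slide 1 of the empty-vector group lay above 2 of the MyoD arrays. In shLuc cells it read 6.64, 5.96 and 6.14 with MyoD, against 5.17, 4.14 and 4.24 with empty vector, with no overlap. The change was 1.34 ± 0.58 in shSix4 cells (adjusted p = 0.459) and 1.73 ± 0.58 in shLuc cells (adjusted p = 0.117), so it passed in neither line. It passed with the slide block in both (adjusted p = 0.0278 and 0.00402), without slide 1 in both (0.00906 and 0.00504) and without the empty-vector shSix4 array of slide 1 (0.0213 and 0.0173). The actins are nearly identical in their coding sequence, and the probe sequences were not used here, so whether a probe reads a related actin was not tested. The nearest profile to Actc1 outside the set was Actg2, the enteric smooth muscle actin (r = 0.970), whose own change in shLuc cells was 1.04 (adjusted p = 0.297; slide block 0.00921). The cytoplasmic actins Actb and Actg1 gave log2 changes of -0.12 ± 0.76 and 0.03 ± 0.18 in shLuc cells, neither past the threshold. The Actb probe ranged over 2.43 log2 units on the 12 arrays and read highest on slide 1 in every group, so its change is imprecise.

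Among the tropomyosins only Tpm2, the beta-tropomyosin of skeletal and other muscle, was called. It read 6.25, 5.32 and 5.32 in shSix4 cells with MyoD, against 5.13, 4.12 and 4.43 with empty vector. In shLuc cells it read 6.52, 5.75 and 5.96 with MyoD, against 4.84, 4.40 and 4.38 with empty vector. No array of an empty-vector group reached the MyoD arrays of its own line. The increase was 1.54 ± 0.34 in shLuc cells (2.90-fold, adjusted p = 0.0194). In shSix4 cells the change was 1.07 ± 0.34, not past the threshold (adjusted p = 0.181). It passed with the slide block (adjusted p = 0.00104) and without slide 1 (0.0194). The shLuc call was lost with normexp correction (adjusted p = 0.832), with plain background subtraction (0.180), with its 2 probes averaged (0.0913) and without replicate 2 or 3 of the empty-vector group or replicate 1 or 3 of the MyoD group (up to 0.0879), and the change stayed between 1.32 and 1.73. The second Tpm2 probe gave 0.99 ± 0.56 in shSix4 cells and 1.29 ± 0.56 in shLuc cells (adjusted p over 24000 probes 0.793 and 0.297; slide block 0.0213 and 0.00291).

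The 2 probes of Tpm1, the tropomyosin of heart and fast muscle that fibroblasts also make in other spliced forms, did not give the same picture. The brighter probe lay between 5.43 and 6.09 on all 12 arrays, with log2 changes of 0.13 ± 0.20 in shSix4 cells and 0.06 ± 0.20 in shLuc cells (adjusted p = 0.993 and 0.912). The other read 5.16, 4.60 and 4.94 in shSix4 cells with MyoD, against 3.94, 4.59 and 4.55 with empty vector, and 5.53, 5.08 and 4.98 in shLuc cells with MyoD, against 4.20, 4.06 and 4.64 with empty vector. On the second probe every MyoD array was above the empty-vector arrays of its line, in shSix4 cells barely so on slide 2. Its change was 0.54 ± 0.26 in shSix4 cells (adjusted p over 24000 probes 0.667) and 0.90 ± 0.26 in shLuc cells (0.0966; slide block 0.0361). Both probes carry the same transcript accession, so which spliced forms each reads is not known from the files.

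Tpm3, the slow muscle tropomyosin that is also widespread in other cells, was not called in either line. Its brighter probe lay between 4.33 and 4.86 on all arrays, with changes of -0.23 ± 0.16 in shSix4 cells and -0.20 ± 0.16 in shLuc cells (adjusted p = 0.824 and 0.580). It was lower with MyoD on all 3 slides in both lines, as were 30.2% of all genes in shSix4 cells and 40.3% in shLuc cells. Its level ran against that of Acta1 over the arrays (r = -0.706). The dimmer Tpm3 probe gave -0.24 ± 0.54 and 0.015 ± 0.54, and its arrays scattered over 2.13 log2 units.

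Nrap, a scaffold of early myofibrils, was dim and passed narrowly. It read -3.09, -3.88 and -4.67 in shSix4 cells with MyoD, against -6.42, -5.30 and -5.39 with empty vector. In shLuc cells it read -2.92, -4.42 and -3.47 with MyoD, against -5.99, -6.02 and -4.79 with empty vector. The groups did not overlap, but the probe stood well above background on only 2 of 3 empty-vector arrays in shSix4 and 1 of 3 in shLuc cells. The change was 1.82 ± 0.52 in shSix4 cells (adjusted p = 0.128; slide block 0.0725), and for shLuc cells it was 1.99 ± 0.52 (adjusted p = 0.0480), partly from readings at background. The shLuc call was lost in 13 of the 23 alternatives in which it was measured, with adjusted p up to 1.00 and a change of 0.36 under normexp correction. It was lost without replicate 1 or 2 of shLuc with empty vector, replicate 1 or 3 of shLuc with MyoD, replicate 2 or 3 of shSix4 with empty vector and replicate 2 of shSix4 with MyoD.

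Smyd1, a muscle lysine methyltransferase needed for myofibril assembly, was not called by either of its probes. The brighter read 2.67, 2.38 and 2.26 in shSix4 cells with MyoD, against 2.38, 2.20 and 2.22 with empty vector, and 3.02, 2.86 and 2.50 in shLuc cells with MyoD, against 3.02, 2.34 and 2.07 with empty vector. The groups overlapped in both lines and the log2 changes were 0.17 ± 0.25 and 0.31 ± 0.25 (adjusted p = 0.991 and 0.560). The second probe ranged over 0.58 log2 units on the 12 arrays, with changes of 0.35 ± 0.18 and 0.28 ± 0.18. Both probes stood well above background on all 12 arrays, also with empty vector. Whether they read the muscle transcript is not known from the files, so the muscle form may be unmeasured here. Unc45b, a myosin chaperone outside the set, was in the same RNA at least 145-fold higher with MyoD in shSix4 cells and at least 682-fold higher in shLuc cells, counted from the lowest signal above background because it was not well above background on any empty-vector array.

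Cfl2, the cofilin of muscle, was the member whose level separated the 2 lines with either vector. It read 1.28, 0.072 and 0.67 in shSix4 cells with MyoD, against 2.44, 1.47 and 1.49 in shLuc cells with MyoD. With empty vector it read -0.44, -0.43 and -0.66 in shSix4 cells, against 1.07, 0.92 and 0.64 in shLuc cells. Each shSix4 array was below each shLuc array with the same vector. The difference between the lines was -1.13 ± 0.33 among MyoD arrays (adjusted p = 0.234) and -1.38 ± 0.33 among empty-vector arrays (adjusted p = 0.335), neither past the threshold, and both passed with the slide block (0.0292 and 0.0377). The MyoD arrays of slides 1, 2 and 3 differed by -1.15, -1.40 and -0.82, and the empty-vector arrays by -1.51, -1.35 and -1.29. The log2 change of Cfl2 with MyoD was 1.18 ± 0.33 in shSix4 cells and 0.93 ± 0.33 in shLuc cells. Neither change passed the threshold (adjusted p = 0.108 and 0.142), and both passed with the block (0.0130 and 0.0188). The change in shSix4 cells also passed without replicate 2 of the MyoD group (adjusted p = 0.0369). The shSix4 arrays with MyoD thus overlapped the shLuc arrays with empty vector.

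With MyoD in both lines, shSix4 against shLuc, 0 of the 9 members passed in either direction (lowest adjusted p 0.234; 2 members at an unadjusted p under 0.05, as were 7.8% of all genes), beside 0.163% of all genes lower and 0.065% higher. With the slide block 1 member, Cfl2, was lower, against 2.59% of all genes. An unadjusted p under 0.05 with the block was found in 6 of the 9 members, against 20.3% of all genes. By the brightest probe of each gene all 9 differences were below 0, with a median of -0.45 beside 0.029 for all genes, though Tpm1 and Tpm3, at -0.033 and -0.029, turned positive under normexp correction and under scaling to the array median. The dimmer Tpm3 probe gave 0.34 ± 0.54 and was higher in shSix4 cells on all 3 slides. Lmod3 differed by -1.01 ± 0.33 (adjusted p = 0.319, and 0.0624 with the block), Actc1 by -0.92 ± 0.58 and Acta1 by -0.90 ± 0.48 (adjusted p = 0.881 and 0.781). Lmod3, Actc1 and Cfl2 did not overlap between the lines, where 6.09% of all genes were lower without overlap, and 6 of the 9 members were lower on all 3 slides, where 18.3% of all genes were. The summed level of the 12 skeletal muscle markers was 7.18 to 7.91 in shSix4 cells with MyoD, against 8.72 to 9.16 in shLuc cells with MyoD, and that of the 12 fibroblast markers was 10.19 to 10.63, against 10.17 to 10.46. The 6 cardiac markers of 10 that were tested summed to -2.13 to -1.44, against -0.62 to 0.32, with Ryr2 never above background in either group. In shLuc cells this sum was mostly Myh6, at a mean of -0.44 against -3.54 in shSix4 cells. Myh6 entered the test through shLuc with MyoD alone. Nppa and Nppb went the other way, with means of -4.35 and -4.63 in shSix4 cells against -4.58 and -4.68. The 7 smooth muscle markers of 9 summed to 7.51 to 8.67, against 8.25 to 8.87. The part of these markers in the members' differences was not tested.

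**Figure D3:**
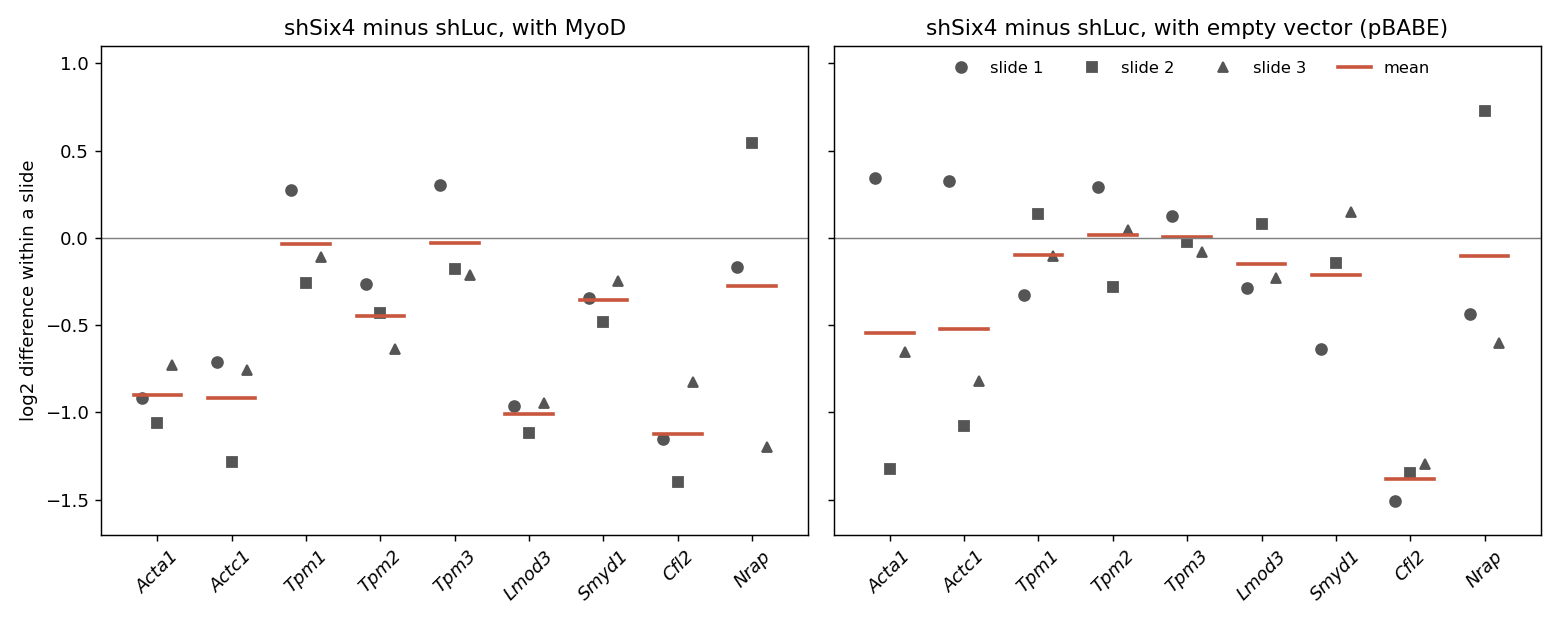
Difference shSix4 minus shLuc within each slide for the 9 tested members, with MyoD (left) and with empty vector (right). Markers are slides and bars their mean. Cfl2 lies below -0.8 on every slide in both panels, Lmod3, Acta1 and Actc1 lie below -0.7 on every slide with MyoD only, and without the slide block no difference passed the threshold, while with it Cfl2 passed in both panels.

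With empty vector the lines differed in 0 of the 9 members by the test (beside 0.0488% of all genes lower and 0.00813% higher; 1 member, Cfl2, at an unadjusted p under 0.05, as were 4.45% of all genes). With the slide block Cfl2 was lower, as were 0.496% of all genes. Cfl2 was the one member whose groups did not overlap, where 5.07% of all genes were lower without overlap. Acta1 and Actc1 differed by -0.54 ± 0.48 and -0.52 ± 0.58, with slide 1 above 0 and slides 2 and 3 below 0 for both. Lmod3 differed by -0.15 ± 0.33 at its low level.

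The response to MyoD differed between the lines in 0 members (adjusted p = 1.00 for all 9 in limma, and 0.771 or higher with the slide block). The difference of the responses, shSix4 minus shLuc, was -0.86 ± 0.46 for Lmod3, negative on all 3 slides, and -0.46 ± 0.48 for Tpm2, also negative on all 3. Of all genes 10.8% were negative on all 3. Acta1 gave -0.36 ± 0.67 and Actc1 -0.39 ± 0.81, with slides of both signs. Cfl2 gave 0.26 ± 0.46.

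Around the set stood a list of 48 genes of the actin filament and its partners, 44 of them tested. In shSix4 cells 15 rose with MyoD and 0 fell, and in shLuc cells 17 rose and 0 fell (34.1% and 38.6% called, beside 2.89% and 6.28% of all genes). Tmod1, Neb, Cap2, Klhl40, Klhl41, Actn2, Csrp3 and Unc45b entered the test through MyoD groups alone. Their changes with MyoD thus start from readings partly or wholly at background. With the slide block 17 were higher and 0 lower in shSix4 cells, and 19 were higher and 5 lower in shLuc cells, where 15.7% of all genes were lower. The 5 were Fhod1 (-0.91), Tmod3 (-0.90), Tpm4 (-0.68), Twf1 (-0.62) and Mrtfa (-0.40), none past the threshold without the block. The 15 called without the block in shSix4 cells were among the 17 in shLuc cells, and both counts included 7 of the 8 troponin genes. By fitted change the leading genes in shSix4 cells were Unc45b, whose bound of 7.18 lies below the changes of the others named here, Tnnc2, the fast skeletal troponin C, at 8.75 ± 0.35 and Tnnt3, the fast troponin T, at 7.88 ± 0.71. In shLuc cells they were Unc45b, with a bound of 9.41, Tnnc2 at 10.37 ± 0.35 and Tnnt2, the cardiac and embryonic troponin T, at 9.08 ± 0.51. The median of the list was 0.14 in both lines.

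Between the lines with MyoD, 1 of the 44 surrounding genes was lower in shSix4 cells and 0 higher, beside 0.163% and 0.065% of all genes. With the slide block 12 were lower and 0 higher, beside 2.59% and 1.75% of all genes. The called gene was Actn2, the alpha-actinin of the Z disc, at -7.21, -6.77 and -5.85 in shSix4 cells with MyoD, against -4.09, -4.72 and -4.57 in shLuc cells with MyoD. It was well above background on 1 of 3 arrays and 3 of 3 arrays of these groups, and entered the test through the shLuc group alone. The fitted difference of -2.15 ± 0.36 (limma adjusted p = 0.0471) thus rests partly on readings at background and is not a measured size. With empty vector 0 were called, beside 0.0569% of all genes. The smallest p there belonged to Tmod1, the pointed-end capping protein tropomodulin (adjusted p = 0.545). It stood well above background on 2 of 3 shSix4 arrays and 1 of 3 shLuc arrays with that vector. The interaction called 0, as it did over all genes. Its smallest p was for Actn2 (adjusted p = 0.489), which was well above background on 0 of 3 empty-vector arrays in either line, so no size is given.

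**Figure D4:**
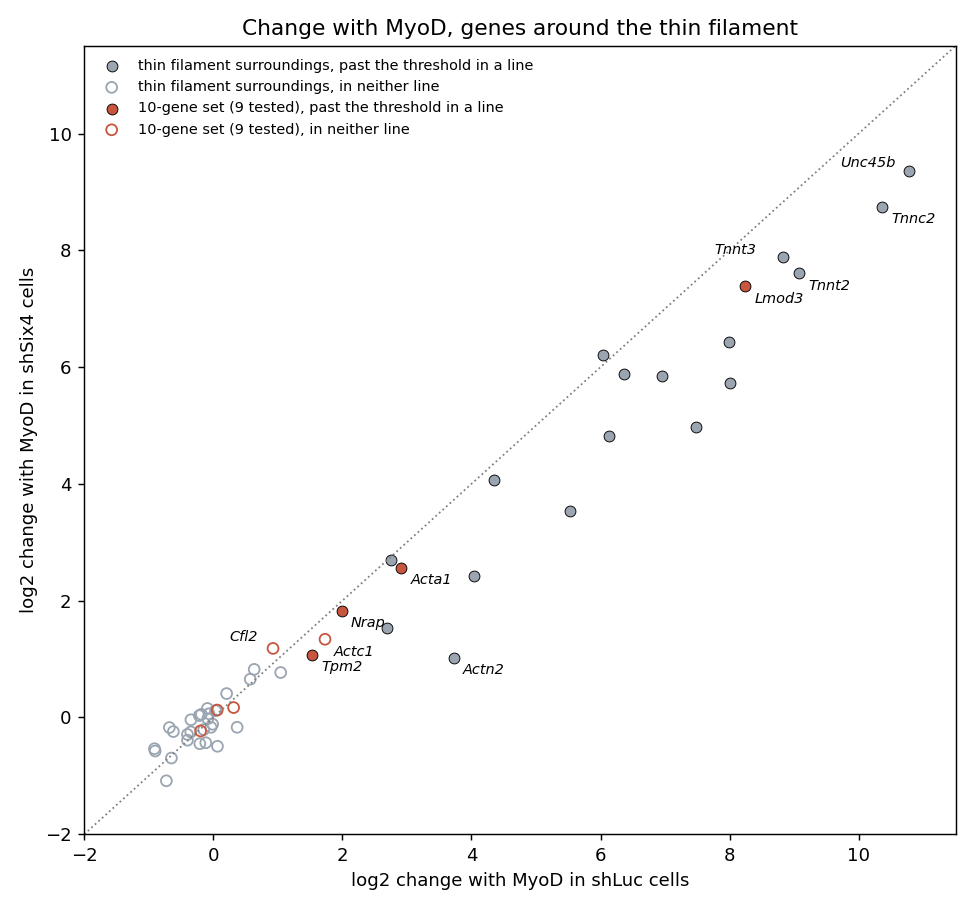
Fitted log2 change with MyoD in shSix4 (y) and shLuc (x) cells for the 9 tested members (red) and 44 surrounding genes (grey), filled where the change passed the threshold in at least 1 line. The dotted line marks equal change, and fitted values of genes at background without MyoD (Unc45b and Actn2 among those named) are not bounds. Among the members Lmod3 alone lies above 7 in both lines, and the remaining ones lie below 3.

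Correlations over the 12 arrays are given as a description, since the arrays share their groups and slides. Acta1 and Tpm2 had the highest correlation in the set (r = 0.966), and Acta1 and Lmod3 had 0.925. Tpm3 was negatively correlated with all other members (r = -0.706 to -0.145). The genes outside the set with the most similar profile among 12135 were E2f2, a cell cycle factor, for Acta1 (r = 0.989), Pdxp for Tpm2 (0.990), Kpna1 for Cfl2 (0.979), Lama2 for Nrap (0.950), Mrps17 for Smyd1 (0.910), Clmp for Tpm3 (0.893) and Xrcc5 for Tpm1 (0.833).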

How the data were processed

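Cy3-labelled cRNA from 300 ng of RNA per sample was hybridised to 12 single-colour Agilent mouse arrays, as the labels' protocols state. The deposited scanner files hold the authors' spot intensities on a linear scale, from Agilent Feature Extraction (10.5.1.1 in the submitters' processing notes, 11.5.1.1 per the file headers). Per the file headers, background was subtracted within each array, and arrays were not scaled to each other. A log2 table normalized by the authors, by quantiles according to its name, was deposited as well. The copy used here holds 1 of the 14 member probes (3891 different probes) and served as an alternative.

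Groups come from the sample titles. The description field names another cell line and was not used. Control and outlier-marked spots were dropped, spots of a probe were averaged, and each array's 75th percentile of log2 signal over non-control spots was subtracted. Of 41174 probes 24000 were kept, and the brightest probe per gene gave 12300 genes. Accessions were named through RefSeq genes (GRCm38.p6), which named 24823 of 26346 probes with an mRNA accession. Group means were fitted over 12 arrays with limma 3.58.1 in R 4.3.3 (8 residual and 2.85 prior degrees of freedom), adjusted by Benjamini-Hochberg over all genes of a comparison, and labels were read with jsonlite 2.0.0. Steps were tested on simulated data with independent noise on each array and no slide effect. That test therefore does not cover the shared deviation of arrays on a slide. Motifs and figures used Python 3.11.15, pandas 2.3.3 and matplotlib 3.10.9. Promoter sequences are RefSeq's.

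Each slide holds 1 array of every group, so replicate numbers pair the samples: over 12144 genes, deviations from the group means correlated at r = 0.278 to 0.819 for 18 same-slide pairs and -0.733 to 0.498 for 36 other pairs.

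Named genes are all 10 members. Of the surrounding list, named are the 3 with the largest change past the threshold in each direction per comparison, or otherwise the one with the smallest p. Also named are the most correlated gene per member, Six4 and Myod1. Actb, Actg1 and the 5 surrounding genes lower with the slide block were named after their values were seen. Members and lists were chosen with earlier results of these data known. For a bound, the dim group's arrays were raised to the lowest level well above background wherever they read below it. The files hold no mean spot signal, so normexp (offset 50) and plain subtraction (floor 1) used the median signal. Other alternatives were the slide block, quantile and median scaling, no filter or a filter on all 12 arrays, averaged or separate probes, outlier spots kept, a trended robust fit and each array left out. Leaving out slide 1 was added after seeing the data.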

Additional observations from a re-analysis of the deposited data

How the results depend on the processing

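Over the alternatives the members' single changes kept direction and side of the threshold in 982 cases, lost the threshold in 24, gained it in 14 and turned sign in 60, the last only for values that had not passed. The cause of these changes was not tested, except that the authors' table holds 1 member probe, so its counts of 0 rest on 1 tested member. With MyoD in shSix4 cells, 2 members were higher, 5 with the replicate block, 1 with normexp, 0 in the authors' table, 4 without slide 1 and 1 to 3 with 1 array left out. With MyoD in shLuc cells, 4 were higher, 6 with the replicate block, 2 with normexp, 2 with plain subtraction, 0 in the authors' table and 2 to 5 with 1 array left out. Between the lines, the block gave 1 lower member with MyoD and 1 with empty vector, where leaving out slide 1 also gave 1. The block changed no call of a member's brightest probe beyond those given with the members. Over all genes the block raised the calls for MyoD in shSix4 cells to 1021 from 356 and in shLuc cells to 3153 from 772, and those between the lines to 533 from 28 with MyoD and to 79 from 7 with empty vector.

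Signs turned as follows (log2). For the change with MyoD, Tpm1 read -0.14 in shSix4 cells without slide 1 and -0.012 in shLuc cells with plain subtraction. For shSix4 against shLuc with MyoD, normexp gave Tpm1 0.11 and Tpm3 0.13, quantile scaling gave Tpm3 0.0063, median scaling gave Tpm1 0.0081 and Tpm3 0.012, and averaged probes gave Tpm3 0.15. With empty vector, normexp gave Actc1 0.10, Tpm1 0.18 and Smyd1 0.016, plain subtraction gave Tpm2 -0.011 and Tpm3 -0.18, the authors' table gave Tpm1 0.12 and averaged probes gave Tpm2 -0.068. Without slide 1 the empty-vector differences were 0.015 for Tpm1, -0.12 for Tpm2, -0.054 for Tpm3, 0.0020 for Smyd1 and 0.060 for Nrap. For the difference of the MyoD responses, Tpm1 read -0.072 with normexp, -0.35 in the authors' table, -0.15 with averaged probes and -0.20 without slide 1, Tpm3 read 0.055 with plain subtraction and 0.0035 with median scaling, Nrap 0.18 with plain subtraction and Acta1 0.097 without slide 1.

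With 1 array left out, ranges that crossed 0 for the change with MyoD were -0.067 to 0.23 (Tpm1, shSix4) and -0.039 to 0.12 (Tpm1, shLuc). Between the lines with MyoD they were -0.23 to 0.074 (Tpm1), -0.15 to 0.065 (Tpm3) and -0.68 to 0.12 (Nrap). With empty vector they were -0.27 to 0.24 (Tpm2), -0.053 to 0.044 (Tpm3), -0.31 to 0.058 (Lmod3), -0.41 to 0.059 (Smyd1) and -0.32 to 0.30 (Nrap). For the difference of the responses they were -0.78 to 0.24 (Acta1), -0.86 to 0.36 (Actc1), -0.13 to 0.17 (Tpm1), -0.16 to 0.059 (Tpm3), -0.42 to 0.057 (Smyd1), -0.048 to 0.57 (Cfl2) and -0.58 to 0.23 (Nrap). Signal over background limits Lmod2 and Nrap.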
